A study of Mus musculus with 4 samples.

Results

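Oxidative phosphorylation subunits were followed in total RNA from the dentate gyrus of the hippocampus, measured on 4 single-channel oligonucleotide arrays. The members are the probe sets that the array annotation gives to exactly 1 gene whose symbol starts with Nduf, Uqcr, Atp5 or Cox followed by a digit from 4 to 8, or is Sdha, Sdhb, Sdhc, Sdhd, Cycs or Cyc1. They number 101 of 12422 probe sets that are not controls, and 73 of 8251 genes. The mice were young C57BL/6J males that were handled and otherwise untreated, and their RNA was taken at 1, 2, 4 or 6 h, counted from the last shock given to other mice of the study, which were not analysed here. Since a single array (1 per hour) stands for each hour, no hour has a replicate error, and the SD values below run over the 4 arrays. The number of mice behind each RNA is not in the labels, and the p-values rest on the spread between these 4 samples alone.

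Oxidative phosphorylation takes place in the inner mitochondrial membrane. Complex I (NADH dehydrogenase) and complex II (succinate dehydrogenase) pass electrons to ubiquinone, complex III passes them on to cytochrome c, and complex IV (cytochrome c oxidase) passes them to oxygen. Complexes I, III and IV pump protons, and complex V (ATP synthase) uses the proton gradient to make ATP. Neurons draw most of their ATP from this pathway, largely to restore ion gradients. Some subunits are encoded in mitochondrial DNA, but every member here is a nuclear gene, and the mitochondrial genes were not analysed here.

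The members comprised 38 probe sets of 29 complex I genes, 4 of 4 complex II genes, 9 of 8 complex III genes, 1 of cytochrome c, 23 of 15 complex IV genes and 22 of 14 complex V genes. The other 4 belong to Ndufaf1 and Ndufaf4, which share the Nduf prefix but help to assemble complex I and are not subunits of it. Cox7a2l, which joins respiratory complexes into larger assemblies, also came in by its name. A further 10 probe sets carry a member's symbol beside that of another gene or pseudogene, such as Ndufs6, Ndufs5, Ndufa11, Ndufb4 and Cox7c, and were left out. Values are intensities on a linear scale as the authors deposited them. A probe set was tested when its mean log2 intensity reached the 40th percentile (6.66), which 76 of the 101 members did, covering 66 genes. Of these 76, 25 have identifiers ending in _f_at, _r_at, _s_at, _i_at or _g_at, marks that the array design gives to probe sets whose oligonucleotides may match other genes or be fewer in number. Intensities of different probe sets do not rank transcript levels, so each probe set is compared with itself across arrays.

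The arrays were scaled to the same trimmed mean (500.3), and 1 of them stood apart. At 1 h the 3' to 5' intensity ratio of the Gapdh control was 4.88, against 1.13, 1.33 and 1.24 at 2, 4 and 6 h, and the beta-actin ratio was 2.51 against 1.83, 2.2 and 1.97. Over the 7453 tested probe sets, Pearson's r of log2 values ran from 0.92 to 0.93 where a pair held the 1 h array and from 0.957 to 0.964 where it did not, where probe sets are not independent replicates. Over the 76 members it was 0.98 to 0.986 and 0.99 to 0.994. The 5 granule cell marker genes with a probe set (Calb1 and Prox1 among them) summed to intensities of 4611, 4732, 4801 and 5230 at 1, 2, 4 and 6 h. Such sums follow the brightest probe sets and do not show that each marker was steady. Calb1 read 2033, 2052, 2323 and 2375, while Prox1 read 71.6, 278, 155 and 232, far lower at 1 h. Summed intensities ran from 22139 to 24774 for astrocyte markers, 13032 to 20100 for oligodendrocyte markers (highest at 2 h), 12470 to 12871 for interneuron markers and 2168 to 6778 for choroid plexus markers (lowest at 1 h, highest at 6 h). They ran from 5700 to 7202 for CA pyramidal, 8205 to 9150 for microglial, 802 to 1452 for endothelial and 3635 to 4980 for erythrocyte markers. Markers of a type could differ in direction: of the CA pyramidal ones, Nnat read 713, 2627, 2062 and 2477 and Rgs14 3951, 2956, 3782 and 3013. The part of these markers and of the 1 h array's Gapdh ratio in the results below was not tested, except that values without the 1 h array are given. In bulk RNA, fewer cells of a type and less RNA per cell cannot be told apart.

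Respiratory genes differed little between the 4 control arrays. The median SD of their log2 intensities was 0.161 over the 76 tested members, or 1.12-fold, against 0.243 (1.18-fold) over all 7453 tested probe sets. Without the 1 h array these medians were 0.123 and 0.182. The members lay at higher intensities than most probe sets, and spread depends on brightness. In the band of mean log2 intensity from 11 to 13, which held 36 members, the median SD was 0.162 for members and 0.146 for all 722 probe sets. From 9 to 11 it was 0.139 for 14 members and 0.191 for 2468 probe sets, at 13 and above 0.138 for 11 members and 0.142 for 170, and under 9 it was 0.363 for 15 members and 0.32 for 4093. At like brightness the members' spread was thus above that of all probe sets in 2 bands and below it in the other 2.

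**Figure D1:**
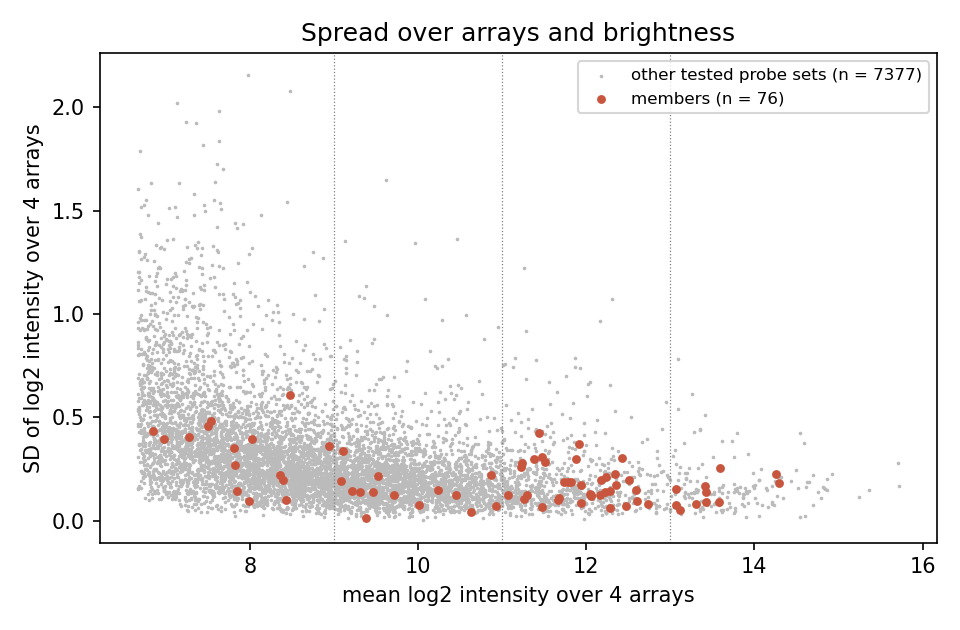
SD of log2 intensity over the 4 arrays (vertical) against mean log2 intensity (horizontal) for the 76 tested members (red) and the other tested probe sets (grey), with dotted lines at 9, 11 and 13. Members lie mostly to the right, where all probe sets spread less.

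No member passed the test for a trend over the hours. When a straight line was fitted to log2 intensity against hour in limma (Benjamini-Hochberg adjustment over 7453 probe sets), 0 of 76 members had an adjusted p under 0.05, where 0.0134% of all tested probe sets did, and the lowest adjusted p of a member was 0.874. At an unadjusted p under 0.05 in limma there were 2 members, both with slopes below 0, where 2.36% of tested probe sets had such slopes, and 0 with slopes above 0, where 2.04% did. Without the 1 h array 6 of 76 members (7.89%) had an unadjusted p under 0.05 in limma, where 5.09% of all tested probe sets did. Without the 2 h array 11 of 76 (14.5%) had one, where 13.3% of all did. Without the 4 h or the 6 h array 0 of 77 had one, where 2.27% and 3.22% of all did, and no member passed adjustment in any of these fits. Slopes were above 0 in 32 of 76 members (42.1%) and in 46.5% of all tested probe sets. This count turned on the 1 h array: without it 58 of 76 member slopes were above 0, against 47.4% of all tested probe sets. It also moved with the scaling, to 51 of 76 members and 58.1% of all under scaling to 1 common median. With 2 residual degrees of freedom a p that misses the threshold does not show that levels were alike.

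The members shared a pattern between the arrays that was small in size. Each array was set against the mean of the other 3 on the log2 scale. At 2 h, 58 of 76 members lay below the other arrays, with a median of -0.12, while the median of all tested probe sets was 0.02, and 23.7% of members lay above them, against 52.6% of all. The 2 h array held the lowest value of 38 members (50%), against 23.9% of all tested probe sets. At 1 h, 54 members (71.1%) lay above the others, against 54.6% of all tested probe sets, with a median of 0.16 against 0.05. The highest value of 45 members (59.2%) was there, against 35.4% of all. Of the 25 members with another suffix than plain _at, 22 lay above the others at 1 h (median 0.27), and of the 51 with the plain suffix 32 did (median 0.11). The medians at 4 and 6 h were -0.02 and 0.01, against 0.02 and 0.00 over all. These differences share arrays, since each array is part of the reference of the other 3.

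The low 2 h values were also found without the 1 h array. Against the mean of 4 and 6 h alone, 56 of 76 members (73.7%) were lower at 2 h, with a median of -0.08, where 46.6% of all tested probe sets were lower and their median was 0.02. With 1 h left out, 56 members (73.7%) were also higher at 6 h than the mean of 2 and 4 h (median 0.075), against 49.1% of all. In those arrays a low 2 h value cannot be told apart from a high 6 h one. Without the 4 h array 55 members were lower at 2 h (72.4%, against 48.1% of all), and without the 6 h array 57 (75%, against 49.8%). Without the 2 h array 54 members were still above the others at 1 h (71.1%, against 55% of all). Bright probe sets as a whole leaned the same way: in the band of 13 and above the median was 0.16 at 1 h and -0.09 at 2 h over all 170 probe sets, and 0.17 and -0.15 over the 11 members. In the band from 11 to 13 it was 0.04 and -0.035 over all, and 0.16 and -0.10 over members. The dimmer bands did not lean this way at 2 h over all probe sets. From 9 to 11 the medians were 0.013 and 0.008 over all, and 0.08 and -0.07 over 14 members. Under 9 they were 0.07 and 0.055 over all, and 0.17 and -0.16 over 15 members. Under scaling to the same median the 2 h and 1 h medians of the members kept their signs (-0.145 and 0.12), as they did under quantile normalization (-0.09 and 0.135). The 6 h array was the exception. Scaling to the same median moved the median of all tested probe sets there by over 0.1, from 0.00 to 0.11, and raised the members above the others from 42 to 65. Relative to all probe sets the members' 6 h median was higher by 0.015 in both scalings, since 1 factor per array moves both medians alike. Under quantile normalization, which can change this difference, it was 0.002. At 1 and 2 h the members' medians differed from those of all by 0.111 and -0.138 in both scalings, for the same reason. Under quantile normalization these differences were smaller in size, at 0.086 and -0.091.

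**Figure D2:**
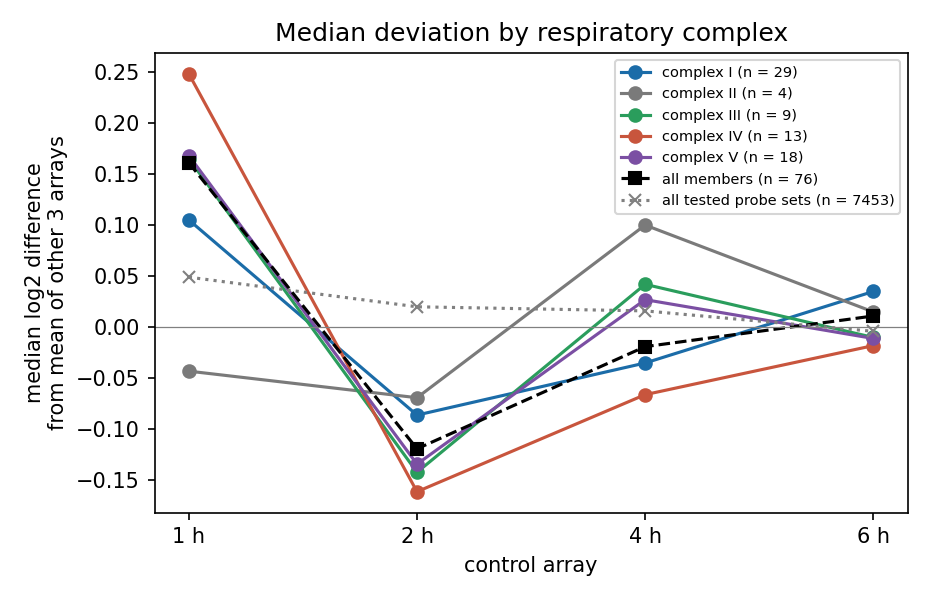
Median log2 difference of each control array from the mean of the other 3 (vertical) for the tested probe sets of each complex, all members and all tested probe sets, by array (horizontal). Apart from complex II the complexes lie above 0 at 1 h, and all 5 lie below 0 at 2 h, where the median of all members is -0.12.

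Large differences were few. At 1 h, 1 of 76 members was at least 2-fold higher than the mean of the other arrays, where 1.8% of tested probe sets were, and 0 were at least 2-fold lower, where 5.29% were. At 2, 4 and 6 h, 0 members were 2-fold from the others in either direction, where 3.39%, 2.82% and 2.76% of tested probe sets were. At a 1.5-fold threshold, chosen after seeing the data, 2 members were higher at 1 h (9.46% of all) and 2 lower (11.7% of all). At 2 h, 1 member was higher (7.08% of all) and 5 were lower (5.37% of all). At 4 h there were 0 higher (5.82% of all) and 0 lower (4.37% of all), and at 6 h 0 higher (4.29% of all) and 1 lower (5.89% of all). The member 2-fold higher at 1 h was a probe set of Cox4i1, and without the 6 h array 2 members were 2-fold from the others at 1 h. The members past 1.5-fold at 1 h were both tested probe sets of Cox4i1, Uqcrc1 and Atp5l. At 2 h they were Cyc1, which was higher, and Ndufa3, Cox4i1, Cox6b2, Atp5d and Atp5l, and at 6 h Cox6b1.

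**Figure D3:**
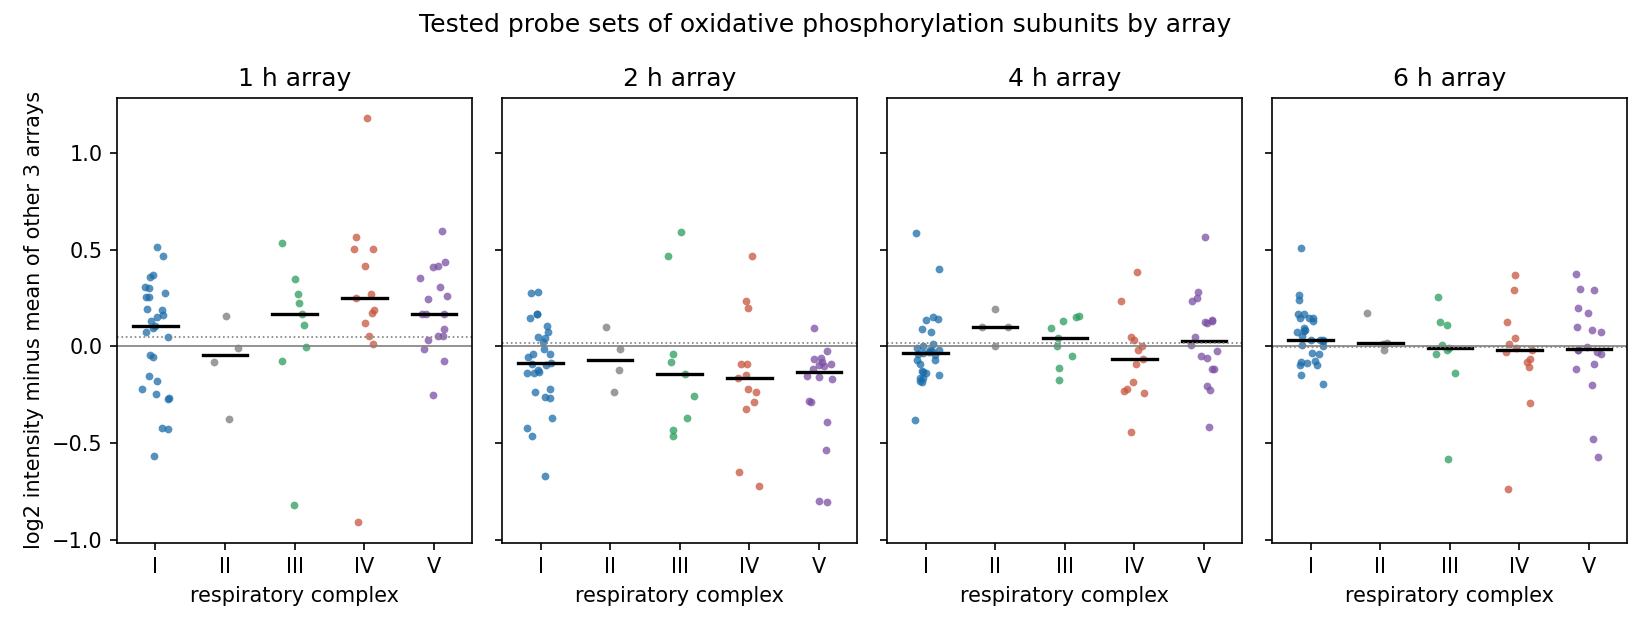
Log2 intensity in each control array minus the mean of the other 3 (vertical) for each tested probe set of complexes I to V (points), with the median of each complex (black bar) and of all tested probe sets (dotted line). Most points of complexes IV and V lie above 0 at 1 h and below 0 at 2 h, and the highest and the lowest point at 1 h are both Cox4i1.

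Promoters of the members were searched for short motifs of factors known to act on respiratory genes. Windows from 250 bases before to 50 after the start came from RefSeq on GRCm38.p6 and matched 59 of the 73 genes. The letters GCGCATGCG of nuclear respiratory factor 1, on either strand, stood in 9 of 59 genes (15.3%), against 1.95% of all 27025 genes with a window. CCGGAAG of the ETS family, which includes GABPA, stood in 16 (27.1%, against 9.93%), and AAGATGGCG of YY1 in 5 (8.47%, against 1.64%). Member windows were richer in CpG, with a median of 19 against 7. Among genes with windows of at least 15 CpG, a limit set after seeing the data, the shares were 17%, 31.9% and 6.38% for 47 members and 4.42%, 19.8% and 3.61% for 10038 genes. A match describes letters and is not a binding site. The 10 tested probe sets of the 9 genes with the nuclear respiratory factor 1 letters had median deviations of 0.16 and -0.105 at 1 and 2 h, and the 50 of genes without them 0.14 and -0.10.

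One window each of cytochrome c and complexes III, IV and V is shown, from genes that hold the nuclear respiratory factor 1 letters and whose values are described after it. Capitals mark the matched motifs. Counted from the start, the letters lie at -61 to -53 on the opposite strand in Cycs. They lie at -162 to -153 in Cox6a1, at -42 to -33 in Atp5g2 and at 31 to 40 in Uqcrc1, each as overlapping matches on both strands of 1 palindrome. Cox6a1 also holds the ETS letters on the opposite strand, at -16 to -10. The windows are at chr6:50566520-50566819 (Cycs, minus strand), chr9:108936398-108936697 (Uqcrc1, plus strand), chr5:115348909-115349208 (Cox6a1, minus strand) and chr15:102670998-102671297 (Atp5g2, minus strand) of GRCm38.p6, each printed 5′ to 3′ in the direction of transcription.
Cycs: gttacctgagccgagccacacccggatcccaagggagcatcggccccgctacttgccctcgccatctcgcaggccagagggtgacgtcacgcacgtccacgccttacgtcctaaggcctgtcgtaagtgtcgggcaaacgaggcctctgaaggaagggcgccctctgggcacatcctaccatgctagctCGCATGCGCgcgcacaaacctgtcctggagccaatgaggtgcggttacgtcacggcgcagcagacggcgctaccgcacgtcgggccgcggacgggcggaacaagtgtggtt
Uqcrc1: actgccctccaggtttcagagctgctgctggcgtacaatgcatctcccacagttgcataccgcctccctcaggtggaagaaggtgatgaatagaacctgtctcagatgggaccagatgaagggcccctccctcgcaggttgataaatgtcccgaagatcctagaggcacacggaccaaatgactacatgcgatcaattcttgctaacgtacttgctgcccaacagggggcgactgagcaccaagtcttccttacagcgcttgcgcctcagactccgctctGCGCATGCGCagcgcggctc
Cox6a1: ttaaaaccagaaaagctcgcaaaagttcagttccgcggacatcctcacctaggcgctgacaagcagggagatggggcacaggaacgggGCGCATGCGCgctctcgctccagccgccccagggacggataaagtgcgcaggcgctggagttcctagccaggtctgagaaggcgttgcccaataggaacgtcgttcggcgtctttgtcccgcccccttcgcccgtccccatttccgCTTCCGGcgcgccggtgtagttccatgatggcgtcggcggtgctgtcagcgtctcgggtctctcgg
Atp5g2: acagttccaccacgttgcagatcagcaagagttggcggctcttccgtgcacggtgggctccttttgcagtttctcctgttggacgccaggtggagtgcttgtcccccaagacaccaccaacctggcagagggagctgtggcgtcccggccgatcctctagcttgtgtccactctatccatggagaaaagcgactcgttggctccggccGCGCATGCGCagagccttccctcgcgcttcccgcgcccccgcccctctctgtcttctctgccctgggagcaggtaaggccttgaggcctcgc

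Complex I is the entry point for electrons from NADH. Of its 29 tested probe sets, 18 (62.1%) lay above the other arrays at 1 h (median 0.105), where 54.6% of all tested probe sets did. At 2 h 19 lay below them (median -0.09), and 13 slopes were above 0. Ndufa13, an accessory subunit also known as a cell death regulator, was among the steadiest, at 1623.5, 1600.3, 1592 and 1517 at 1, 2, 4 and 6 h. Ndufa7, another accessory subunit, read 8622, 9075, 8565 and 9243. Their SDs over the 4 arrays were 0.04 and 0.05 on the log2 scale, the lowest in complex I.

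Core subunits of the matrix arm of complex I, most of which carry redox centres, did not share 1 direction. They were chosen by role after their values were seen. Ndufv1, which binds NADH, read 3859, 5234, 5039.8 and 5236, so that the 1 h value was the lowest. Ndufs1, the largest iron-sulfur subunit, read 2051, 1991, 1873 and 1857, highest at 1 h. Ndufs3 read 3139.5, 3889.5, 3342 and 4141, low at 1 and 4 h and high at 2 and 6 h. Ndufv2, an iron-sulfur subunit, read 4104, 3064, 3287 and 3668 on 1 probe set and 313, 363, 341 and 362 on the other. The first is highest at 1 h and the second lowest there, so the pair does not give Ndufv2 a direction.

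No slope of an accessory subunit of complex I passed the test. Ndufb3 read 2112, 3093, 3494 and 2841, lowest at 1 h, a slope of 0.07 ± 0.06 in log2 units per hour (± SE). Ndufa8, which carries twin cysteine motifs and is imported into the intermembrane space, read 3142, 2360.3, 1974 and 2292, a slope of -0.08 ± 0.05, and its 1 h value was the highest. Ndufa5 read 7046, 5193.5, 5823 and 5392, a slope of -0.05 ± 0.05, also highest at 1 h. Each of these slopes had an adjusted p between 0.874 and 0.902 in limma. They rested on single arrays: without the 1 h array they were -0.03 for Ndufb3, -0.01 for Ndufa8 and 0.01 for Ndufa5, and without the 6 h array 0.22 for Ndufb3 and -0.21 for Ndufa8. Ndufa3 has a dim probe set that read 149, 131, 252 and 242.5, the largest positive slope of the members at 0.19 ± 0.09 (limma adjusted p = 0.874). Its bright probe set read 6257.5, 4282, 5149 and 5286, with a slope of -0.01 ± 0.05 (0.08 without the 1 h array). On the dim one 4 and 6 h are high, and on the bright one 1 h is high, so the gene's trend was not shared by its probe sets. Ndufb2 read 9343.5, 7462, 8395 and 9265.5 and 6007, 7102, 6039.7 and 5556 on its tested probe sets, which differ in whether 2 h is the lowest or the highest. A pair of untested Ndufb2 probe sets read 8.6, 8.3, 17.1 and 7.4 and 17.7, 10.2, 5.3 and 5, mostly below the floor of 16.4.

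Most of the remaining accessory subunits of complex I were highest at 1 h. Ndufab1, which is also the mitochondrial acyl carrier protein, read 3701.5, 2281, 2895 and 2911, and Ndufb5 12793, 9635, 10730.5 and 10696, each highest at 1 h and lowest at 2 h. Ndufa2 read 2131, 1498.5, 2008 and 1899 in the same order of extremes. Ndufb8, Ndufb9, Ndufb7 and Ndufb10, of the membrane arm, were also highest at 1 h, at 5669, 4662, 4562 and 5037 for Ndufb8. Ndufb9 read 4713, 3981, 3987.5 and 4446. Ndufb7 read 3635, 3133, 3053 and 3345 and Ndufb10 3518, 3188, 2987 and 3347. In these 4 the 2 and 4 h values were the lower pair. Ndufb11, encoded on the X chromosome, read 3046, 2766.5, 2792 and 2802, Ndufb6 5975.5, 5419, 5911 and 5474 and Ndufa6 815.5, 676.5, 675 and 673, all highest at 1 h. The opposite order was seen in Ndufa9, at 2235, 2605, 2473 and 2730, Ndufc1, at 4257, 4287, 4954 and 4976, and Ndufs4, at 199, 228, 248 and 246, each lowest at 1 h. Ndufs4 is an accessory subunit whose loss in mice causes a Leigh-like encephalopathy. Ndufa10 read 478.5, 629, 495 and 586 and Ndufv3 1259.8, 1129, 1099 and 1373, the first highest at 2 h and the second at 6 h.

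Complex II, the succinate dehydrogenase that also works in the citric acid cycle, is made only of nuclear subunits. Sdha, its flavoprotein, read 665.5, 663, 668 and 674 at 1, 2, 4 and 6 h, an SD of 0.01 and the lowest of all 76 members. Sdhb, its iron-sulfur subunit, read 4597, 3756, 4467 and 4197.5, highest at 1 h and lowest at 2 h. The membrane anchors differed from it: Sdhc read 2344, 2292, 2701 and 2459, highest at 4 h, and Sdhd 2817, 3610.3, 3607 and 3746, lowest at 1 h. Slopes ran from -0.002 to 0.065 log2 units per hour, and 3 of 4 were above 0.

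Complex III and cytochrome c held the members with the lowest p. Cycs, the mobile electron carrier that also starts apoptosis when released from mitochondria and whose promoter window is printed above, read 744, 585, 488 and 435 at 1, 2, 4 and 6 h. Each value was below the one before it, a slope of -0.15 ± 0.05 with an unadjusted p of 0.0257 and an adjusted p of 0.874 in limma. Without the 1 h array the slope of Cycs was -0.11 (limma adjusted p = 0.994). Cyc1, the cytochrome c1 that hands electrons to cytochrome c, read 4210, 5248, 3529.8 and 2859 on a probe set ending in _r_at, highest at 2 h and lowest at 6 h. Its slope was -0.14 ± 0.05 (unadjusted p = 0.0231 and adjusted p = 0.874 in limma). Its other probe set read 12620.5, 10521, 10674 and 10203, a slope of -0.05 ± 0.04 (limma adjusted p = 0.876), where 1 h is the highest and the later 3 lie close together (SD 0.03). Without the 1 h array the slopes of the Cyc1 probe sets were -0.22 and -0.01.

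The other subunits of complex III had no common direction at 1 h, where 4 of their 7 tested probe sets lay above the other arrays. Uqcrc1, a core protein, read 1818, 3544, 2927 and 3179, the lowest at 1 h by 1.76-fold against the mean of the others. Uqcrc2, the other core protein, named here after its values were seen, read 7271, 4400, 5191 and 5523 on a probe set ending in _f_at, the highest at 1 h. The pair therefore stood on opposite sides at 1 h, where the Gapdh ratio was 4.88. Uqcr10 read 4788, 4188, 5135 and 5123, Uqcrb 2868, 1881, 2589.5 and 2346.5 and Uqcrh, the hinge protein that meets cytochrome c1, 5221, 3832, 5038 and 4599, each with 2 h the lowest. Uqcr11 and Uqcrq, small accessory subunits, were the steadiest, the first at 4779, 4872, 4980 and 5269. Uqcrq read 10698, 9386.5, 10332 and 10055.5. Their SDs were 0.06 and 0.08.

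**Figure D4:**
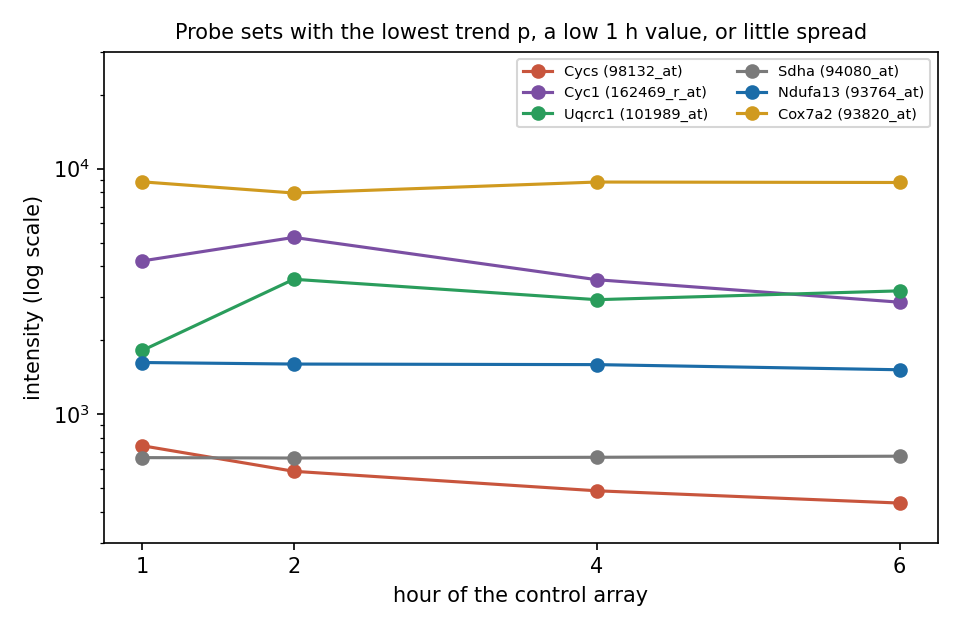
Intensity (log axis) by hour for 1 probe set each of Cycs, Cyc1 (the one ending in _r_at), Uqcrc1, Sdha, Ndufa13 and Cox7a2, 1 array per hour. Cycs goes from 744 at 1 h to 435 at 6 h, Uqcrc1 is lowest at 1 h, and Sdha, Ndufa13 and Cox7a2 run nearly flat.

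Of the 5 complexes, complex IV had the largest share of probe sets above the other arrays at 1 h (92.3%, against 54.6% of all). Of its 13 tested probe sets 12 lay above the other arrays at 1 h (median 0.25), 10 lay below them at 2 h (median -0.16), and 10 slopes were at or below 0. Cox6a1, the ubiquitous form of subunit VIa, read 24284, 16836.5, 19399.9 and 18523.5, highest at 1 h and lowest at 2 h. Cox5b, a zinc-binding subunit, read 6860.2, 5933, 6011 and 6122. Cox7a2, the ubiquitous form of subunit VIIa, read 8836, 7958, 8821 and 8783, and Cox7a2l 2344, 1909, 2180.2 and 2152, each with 2 h as the lowest. Cox7b read 3578, 2253, 2365 and 2659 and the tested probe set of Cox8c, known from testis, 958, 802, 804 and 813, highest at 1 h and lowest at 2 h on both. Cox6b1 read 299.9, 332, 261 and 178 on a probe set ending in _r_at, lowest at 6 h by 1.67-fold, a slope of -0.16 ± 0.07 (limma adjusted p = 0.874), the most negative among members. Without the 6 h array it was -0.08, and those of a Cox4i1 probe set (-0.28), Ndufa8 (-0.21) and Cycs (-0.19) were more negative.

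Cox4i1, the regulatory subunit that binds ATP, gave the largest differences among the 76 tested members, in opposite directions. A probe set ending in _f_at read 656, 253, 313.5 and 305 at 1, 2, 4 and 6 h, so that 1 h was 2.27-fold above the mean of the others. The other read 113, 205, 222 and 211, and 1 h was 1.88-fold below it. Without 1 h, the SD of each was 0.17 and 0.06. The slopes were -0.14 ± 0.11 and 0.15 ± 0.10, with limma adjusted p of 0.876 and 0.874. Without the 1 h array they were 0.07 and 0.01, and a direction for Cox4i1 at 1 h cannot be given.

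**Figure D5:**
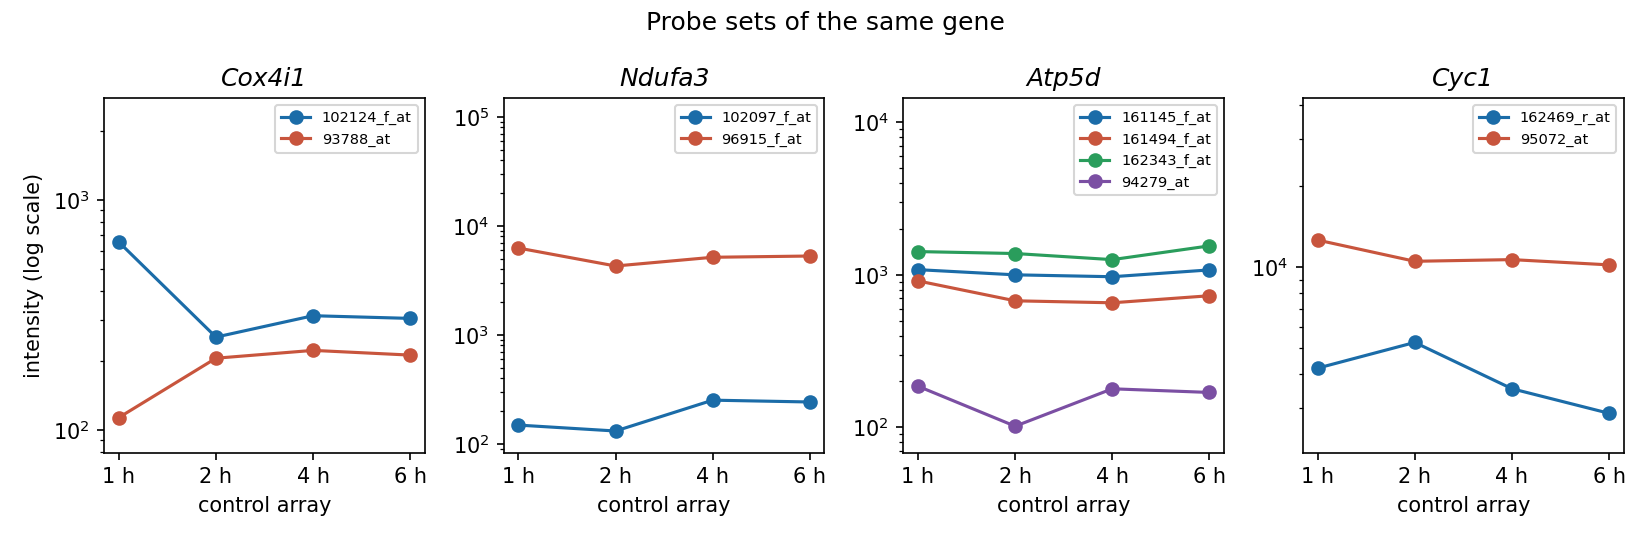
Intensity (log axis, a separate scale in each panel) in the 4 control arrays for each tested probe set of Cox4i1, Ndufa3, Atp5d and Cyc1, named by probe set. The Cox4i1 probe sets part at 1 h, 656 against 113, and the dim probe sets of Ndufa3 and Atp5d differ in shape from the brighter ones.

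Some subunits of complex IV have isoforms known from heart and skeletal muscle or from testis. Cox6a2, the heart and muscle form of subunit VIa, read 348, 363, 260.3 and 349, lowest at 4 h. Cox8b, a muscle form of subunit VIII, read 338, 309, 299.7 and 407 on its tested probe set, highest at 6 h, and 83.9, 64.3, 92 and 54.6 on one too dim to test. Cox7a1, the muscle form of subunit VIIa, was too dim to test, at 86.5, 24.1, 55.4 and 26.2. Cox6b2, known from testis, had 1 tested probe set at 164, 86.6, 142 and 125, lowest at 2 h, and others at 45.2, 16.8, 28.3 and 3 and 60.5, 85.2, 30.7 and 64.5. The 14 muscle marker genes had 20 probe sets, 5 of them bright enough to test, and summed to 1842, 1325, 1791 and 1596, with 3, 7, 5 and 6 of the 20 below the floor and none at 0. Among the 5 tested ones, Acta1 read 271, 243, 196 and 261, and Myl1 225, 82.2, 183 and 127. Actc1 read 414, 268, 458 and 443 on a probe set ending in _f_at, and 25, 4.8, 16 and 4.6 on one too dim to test. Myh1, which makes a myosin of fast muscle, was also too dim to test. It read 21.4, 6.4, 5.6 and 2.5, against the floor of 16.4, to which lower values were set before log2. Cox8a, the ubiquitous form of subunit VIII, was itself too dim to test, at 64.4, 95.4, 67.4 and 61.4, so a dim probe set does not show that a gene was silent.

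Complex V, the ATP synthase, leaned like complex IV. Of its 18 tested probe sets 15 (83.3%) lay above the other arrays at 1 h (median 0.17), against 54.6% of all. At 2 h 17 lay below them (median -0.13), and 8 slopes were above 0. Atp5o, a subunit of the stalk that confers oligomycin sensitivity, read 3458, 3747, 4039.9 and 4594, each value above the one before, a slope of 0.08 ± 0.04 (unadjusted p = 0.0626 and adjusted p = 0.874 in limma). Atp5mpl, a small membrane subunit, read 5195, 4528, 5254 and 6096, a slope of 0.06 ± 0.04. Atp5k, subunit e of the membrane part, read 534, 451, 658 and 364, highest at 4 h and lowest at 6 h, a slope of -0.07 ± 0.08. These slopes had limma adjusted p of 0.874, 0.874 and 0.918, so none of the 3 passed. Without the 6 h array the slope of Atp5k was 0.12 and that of Atp5mpl 0.02, and without the 1 h array that of Atp5mpl was 0.11.

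The ring that turns in the membrane is made of a c subunit encoded by several genes, of which Atp5g1 and Atp5g2 were measured. Atp5g1 read 266, 217, 258 and 177, a slope of -0.09 ± 0.08 (0.01 without the 6 h array, limma adjusted p = 0.9 with all), and 149, 96.1, 79.7 and 80.1 on a dim probe set. Atp5g2 read 654, 606.5, 717.5 and 573, a slope of -0.02 ± 0.05 (0.055 without the 6 h array), and 107.5, 56.2, 98.2 and 85.9 on a dim probe set. On the tested ones 6 h was the lowest for both genes. On the dim ones 4 and 6 h were nearly equal and lowest for Atp5g1 (79.7 and 80.1), and 2 h was lowest for Atp5g2. The probe sets of Atp5g2 thus differed in their lowest hour, while 6 h was low on both of Atp5g1. Atp5g2 is the complex V gene whose promoter window is printed above.

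In the catalytic head and its stalk, the alpha subunit Atp5a1 read 12013, 10346, 10710.2 and 10986.5, highest at 1 h and lowest at 2 h. Atp5c1, the rotating gamma subunit, read 3783, 4131, 3702 and 4147 on 1 probe set and 7427, 6587, 6603 and 6671 on the second, with SDs of 0.085 and 0.083. Atp5d, the delta subunit of the central stalk, had 4 tested probe sets. The steadiest read 1081, 1000, 972 and 1077. A brighter one read 1421, 1379.6, 1258 and 1549 and another 912, 675.5, 656 and 729. The dimmest tested one read 186, 102, 179 and 169, with 2 h low by 1.75-fold, and an untested one read 169.9, 37.7, 38.3 and 29.7. Only the last 2 put an array more than 1.5-fold from the others. The untested one was 4.85-fold higher at 1 h and 1.53-, 1.5- and 2.11-fold lower at 2, 4 and 6 h. The high 1 h value is part of the reference of each of these later arrays. Its lowest value was at 6 h, so the pair did not share a low 2 h value. Atp5e, the epsilon subunit, read 4666, 2845, 4036 and 3719, also highest at 1 h and lowest at 2 h. In the peripheral stalk Atp5j, a coupling factor, read 4833, 4044, 4201 and 4006, and Atp5pb, subunit b, 281, 183, 180.4 and 272. Atp5md, a small membrane subunit, read 23034, 17294, 21419 and 19175, again highest at 1 h and lowest at 2 h.

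Atp5l, subunit g, read 12526, 11274, 13036 and 12008 on a bright probe set and 157, 76.2, 123.3 and 120 on a dim one, where 1 h was high and 2 h low. Slopes of the tested probe sets differed in sign in 7 of the 8 genes that had more than 1, Cyc1 being the exception. This count rested on the 1 h array: without it 2 of the 8 differed, Ndufb2 and Ndufv2. It was 5 without the 2 h or the 6 h array, 6 without the 4 h array, and 4 with scaling to the same median. In Atp5c1, Atp5d, Atp5l and Ndufv2 every slope over all arrays was smaller in size than its SE. For Atp5l the slopes were 0.004 ± 0.04 and -0.002 ± 0.14. In these genes a difference in sign does not show that the probe sets disagreed.

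The 25 members too dim to test lay between intensities of 3 and 169.9. Of these, 9 were below the floor of 16.4 in at least 1 array. The 25 include every probe set of Ndufa1, Ndufa12, Ndufc2, Cox5a, Cox7a1, Cox8a and Atp5j2. Their values varied widely between arrays. Cox5a, of complex IV, read 121, 69.8, 96.9 and 53 and 10.4, 34.4, 40.8 and 16.2. Ndufa1 read 99.7, 33.2, 34 and 89.9 and 36.2, 19.7, 17.5 and 9.4, Ndufa12 30.3, 19.4, 96 and 22.7 with 4 h high, and Ndufc2 82.6, 39.4, 77.9 and 21.7. Atp5j2 read 59.5, 121.5, 167 and 45.8, high at 2 and 4 h. Second probe sets of genes measured above were as uneven: 25.2, 89.3, 134 and 39.9 for Ndufb10, 11.6, 30.3, 52.9 and 24.3 for Ndufb7 and 4.7, 40.9, 21.8 and 21.1 for Ndufb6. Cox6c, whose bright probe set read 16066, 10929, 11228 and 11874, gave 20.5, 62.6, 80.7 and 57.5 and 28.2, 97.2, 17.2 and 50.2 on dim ones. Of the assembly factors, Ndufaf4 read 275.5, 238.5, 243 and 260.4 on its tested probe set and 65.6, 7.3, 5 and 4.4 on a dim one. Ndufaf1 read 556, 532, 649 and 642 on its tested probe set and 89.5, 39.9, 41.6 and 63.7 on a dim one, and Cox8c 12.1, 10, 18.5 and 7 on its dim one. In Ndufb10, Ndufb7, Ndufb6, Cox6c, Ndufaf1 and Ndufaf4 the tested probe set had the smaller SD.

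Other genes of the pathway were taken from lists of assembly factors, of pyruvate dehydrogenase and the citric acid cycle, of regulators, and of carriers and other electron donors, chosen by role. Genes with a probe set numbered 12 of 28, 15 of 17, 12 of 17 and 16 of 20 in these lists. In each list 0 probe sets passed the trend test in limma. The unadjusted p in limma was under 0.05 for 2 of 12 assembly factors, where it was for 4.4% of all 7453 tested probe sets. It was for 0 of the 17 citric acid cycle, 13 regulator and 17 carrier probe sets, lists too short to set 0 apart from that share. Assembly factors leaned as the members did, with 10 of 12 above the other arrays at 1 h (median 0.34) and 10 of 12 below at 2 h (median -0.17). Over all tested probe sets 54.6% were above at 1 h and 52.6% above at 2 h. Cox18, which inserts a mitochondrial subunit into the membrane, read 1683.5, 1038, 903.5 and 922, and Sdhaf1, which matures complex II, 1469.6, 1064, 964 and 864, both highest at 1 h. Acad9, a complex I assembly factor, read 533, 257, 379 and 645.5, and Surf1 of complex IV 1003, 958, 1192 and 1101. The unadjusted p was 0.0495 for Cox18 and 0.0287 for Sdhaf1 in limma.

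The citric acid cycle list did not share that lean: 10 of its 17 probe sets lay below the other arrays at 1 h (median -0.02) and 10 of 17 below at 2 h (median -0.01). Dlst, a subunit of the oxoglutarate dehydrogenase complex, read 293, 666.5, 608 and 611.5 and 397, 677, 557 and 759.6, lowest at 1 h on both. Sucla2, a succinyl-CoA ligase subunit, read 379.5, 252, 217 and 256 on a probe set ending in _r_at, where its other probe set read 3028, 2531, 2583 and 2844. Dlat, of pyruvate dehydrogenase, read 145, 231, 137 and 134, highest at 2 h, and 607, 370.5, 518 and 592 on a brighter probe set, lowest at 2 h, so the pair gives Dlat no direction. Among carriers and donors 12 of 17 were above at 1 h (median 0.25) and 11 below at 2 h (median -0.24). Ckmt1, the mitochondrial creatine kinase, read 664, 909, 789 and 987 and 137.5, 72.8, 101 and 148. Etfa, an electron transfer flavoprotein subunit, read 522, 272, 262 and 280.3, high at 1 h, and Slc25a5, an ADP/ATP carrier, 225, 267, 221 and 158 on a probe set ending in _r_at. The other tested Slc25a5 probe set read 1186, 857, 976.5 and 1185, lowest at 2 h where the first is highest. Among regulators 9 of 13 were above the others at 2 h (median 0.205) and 7 were below at 1 h (median -0.05). Polrmt, the mitochondrial RNA polymerase, read 52, 121, 152 and 135, and Polg, the mitochondrial DNA polymerase, 65.3, 109.9, 172 and 102, both lowest at 1 h. A brighter Polrmt probe set read 325, 418, 403 and 328, also lowest at 1 h and close to that at 6 h. Esrra, a nuclear receptor of respiratory genes, read 325, 373, 217 and 230.4 on 1 probe set and 636, 952, 766 and 887 on its second, and Pprc1, a coactivator, 127, 160.4, 67.8 and 113. Differences between these lists and the members were not tested.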

How the data were processed

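Dentate gyrus total RNA was measured on 4 single-channel arrays, 1 per hour. The values are intensities on a linear scale as the authors deposited them in the series' value table. The steps that made them are not given in the sources used here, and how many mice gave each RNA is not known. Control probe sets were left out. Values below the 10th percentile (16.4) were set to it, log2 was taken, and probe sets with a mean log2 of at least 6.66 (40th percentile) were kept. The authors' scaling was kept, since the arrays share a trimmed mean (2% off each end).

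A linear trend on the hour was fitted to all 7453 probe sets with limma 3.58.1 in R 4.3.3 (2 residual degrees of freedom, moderated variances with an intensity trend, Benjamini-Hochberg adjustment). It was also run on simulated data, where the planted slopes were absent or steeper than any member's. Recovery of slopes as small as the members' was not tested. Folds set each array against the mean of the other 3 in log2. Members named with values are, per complex, the tested probe sets with the steepest slopes up and down and the smallest SD, all of complex II, Cycs and Cyc1, paralog families, 2-fold members and genes with several tested probe sets. Others were added after their values were seen. The members and lists were chosen with earlier results of these data known. Intensities carry no count depth, so the number of arrays limits the precision. Probe sets were named through the platform annotation, and promoter windows came from RefSeq on GRCm38.p6. Alternatives were the filter, floor, scaling, time scale, variance prior, fold threshold and leaving out each array.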

Additional observations from a re-analysis of the deposited data

How the results depend on the processing

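No member passed the trend test in limma under any of the settings tried, where the lowest adjusted p of a member ran from 0.217 (without the 2 h array) to 1, and 2 members had an unadjusted p under 0.05 in the reported fit. Leaving out the 1, 2, 4 or 6 h array made the latter 6, 11, 0 and 0, while 5.09%, 13.3%, 2.27% and 3.22% of all tested probe sets had such a p. The count of member slopes above 0, 32 as reported, ran from 24 to 58 when arrays were left out in turn, and was 51 with arrays scaled to the same median. Members at least 2-fold from the other arrays at 1 h numbered 1 to 2 when arrays were left out in turn, with 2 without the 6 h array, and 2 under quantile normalization. Without the filter on dim probe sets, 11, 5, 6 and 3 members were 2-fold at 1, 2, 4 and 6 h (10.9%, 4.95%, 5.94% and 2.97% of 101, against 16.4%, 11.7%, 12.1% and 10.6% of all). At a 1.5-fold threshold, chosen after seeing the data, they numbered 4, 6, 0 and 1 with the filter. The shares of all tested probe sets past this threshold are given above for each direction. Apart from the filter and the fold threshold, which change which probe sets are counted, the cause was not tested. The slopes of the 45 named tested probe sets were refitted under the settings that can change them, where 47 of 315 refits turned the direction and 0 passed the test. Of the 45, 16 turned without the 1 h array, 10 without the 6 h array, 5 without the 2 h array and 1 without the 4 h array, and 9 under scaling to the same median. No paired analysis was possible because each hour has 1 array. With 1 array per hour, a difference between hours cannot be told apart from a difference between arrays, and probe sets near the floor carry little signal over background.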
